A study of Mus musculus with 4 samples.

Results

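Retnla, Mgl2 and Clec10a were 3 of the 32285 genes counted, picked by symbol as genes of alternative macrophage activation. They were chosen on their section levels in these data and on how unevenly the 4 sections carried them, so their levels and locations are given as a description with no test. Retnla encodes RELMα, a small secreted protein of the resistin family. Mgl2 and Clec10a encode the macrophage galactose-type lectins CD301b and CD301a, which bind sugars that end in galactose or N-acetylgalactosamine at the surface of macrophages and dendritic cells.

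The sections were 10 µm longitudinal cryosections of the mouse Achilles tendon injury site, placed on Visium arrays, which capture RNA on a grid of barcoded spots. A spot covers a small region that can hold several cells of different types. A punch of 0.5 mm had been made in the tendon 2 mm above the heel bone of male and female mice of 12 weeks, and tissue was taken at day 14. The control group (WT) had 2 sections from TrkA WT mice, and the other group (F592A) had 2 sections from TrkA F592A mice treated with 1NMPP1. TrkA is the nerve growth factor receptor found on sensory and sympathetic nerve cells. Its F592A form has a kinase that the small molecule 1NMPP1 can block. The groups differ in genotype, and only F592A mice are stated to have received the drug. Whether WT mice also received it is not stated, so genotype and drug may not be separable. The labels give 4 pooled mice per genotype without tying sections to animals, so n = 2 counts sections and p-values measure only the spread between them. A count per gene does not show the substitution, so the genotype labels were not checked with it.

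Alternative activation is the state macrophages enter when interleukin-4 or interleukin-13 binds a receptor containing IL-4Rα and the transcription factor STAT6 is switched on. Retnla, Arg1, Chil3, Mrc1 and the 2 lectins are its usual markers in the mouse, and the state is known from parasite infection, fat and wound repair. Retnla is also known from fat tissue and, in allergic inflammation, from lung epithelium, and Mgl2 from a dermal dendritic cell type.

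The sections held 30154873 to 43957617 unique molecular identifiers (UMIs, one per captured transcript), over 2027 to 3047 tissue spots. A median of 5467.5 to 7932 UMIs was counted per spot. Levels are scaled to 1000000 UMIs per section (CPM). WT 2 stood apart from the other sections, with 4207 Xist UMIs against 7 to 12 elsewhere and 23 UMIs of Y-linked genes against 7522 to 7918. It also held less muscle, with 12.3% of its spots muscle-rich (over 5% of their UMIs from 10 muscle genes) against 25.0 to 27.5% in the others. Tenocyte genes such as Tnmd, Scx and Comp were present in every section, and the summed level of 8 of them was 3793 to 6177 CPM. The part of sex and of the muscle share in any difference below was not tested.

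Retnla lies on chromosome 16 at 48842609 to 48844461 of the mouse build GRCm38.p6 (mm10), between its relatives Retnlb and Retnlg. Mgl2 (chromosome 11, 70130125 to 70137542) and Clec10a (chromosome 11, 70166623 to 70170836) are neighbours, 29080 bp apart with 0 annotated protein-coding genes between them. The lectins are close copies in sequence, and how reads shared by them were assigned is not given in the sources used here, so the split of UMIs between them is uncertain. The RefSeq windows from 250 bases before to 50 bases after a transcript start are printed for Retnla and Mgl2 because STAT6 is the factor through which interleukin-4 acts on this program. The table of promoters held these 2 of the 3 genes. The Mgl2 window is set on a start 232 bases inside the gene as annotated above, so that 18 of its bases lie before the annotated gene, while the Retnla start is the gene's first base. Capitals mark matches, on either strand, to TTCNNNNGAA (a STAT6-type motif) and to TTGCNNAA (a C/EBP-type motif).
Retnla, chr16:48842359-48842658, plus strand: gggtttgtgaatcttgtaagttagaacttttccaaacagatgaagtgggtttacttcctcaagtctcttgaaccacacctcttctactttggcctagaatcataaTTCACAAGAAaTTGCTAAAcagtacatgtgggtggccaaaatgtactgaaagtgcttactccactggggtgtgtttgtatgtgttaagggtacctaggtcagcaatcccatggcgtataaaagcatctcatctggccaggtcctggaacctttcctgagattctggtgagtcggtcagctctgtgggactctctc
Mgl2, chr11:70130107-70130406, plus strand: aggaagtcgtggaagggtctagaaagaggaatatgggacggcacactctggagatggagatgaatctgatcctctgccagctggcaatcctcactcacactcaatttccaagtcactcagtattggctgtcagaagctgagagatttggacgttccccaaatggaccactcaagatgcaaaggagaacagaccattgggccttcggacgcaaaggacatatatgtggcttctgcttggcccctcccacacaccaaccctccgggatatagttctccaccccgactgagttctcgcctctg
The Retnla window held 1 match to each motif. TTCACAAGAA began 145 bases before the start and TTGCTAAA began 134 bases before it, with 1 base between them. The Mgl2 window held 0 matches to either. Of 32851 mouse promoter windows of this length, 6.95% held the STAT6-type motif and 10.8% the C/EBP-type motif. A match describes letters only, and neither its presence nor its absence shows whether a factor binds.

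All 3 genes were highest in WT 1 and lowest in F592A 1. For Retnla and Mgl2 the other WT section lay near the F592A sections, while Clec10a was more even. Retnla was at 79.4 and 34.3 CPM in WT 1 and WT 2, and at 23.8 and 33.7 CPM in F592A 1 and F592A 2. Sets of 4 values below keep this order of sections. WT 1 was thus 2.32 times the other WT section, while WT 2 and F592A 2 lay within 1 CPM of each other. The counts behind these levels were 3408, 1033, 1047 and 1249 UMIs. Mgl2 followed the same pattern at 18.9, 8.89, 5.35 and 9.90 CPM, with WT 2 below F592A 2, so that the groups overlapped. Its counts were lower, at 809, 268, 235 and 367 UMIs. Clec10a was at 29.2, 23.8, 15.9 and 23.0 CPM (1251, 718, 700 and 854 UMIs). The 3 higher sections of Clec10a differed less from each other than from F592A 1, which stood below them. In bulk-like sums of this kind, fewer cells of a type and less RNA per cell cannot be told apart.

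**Figure D1:**
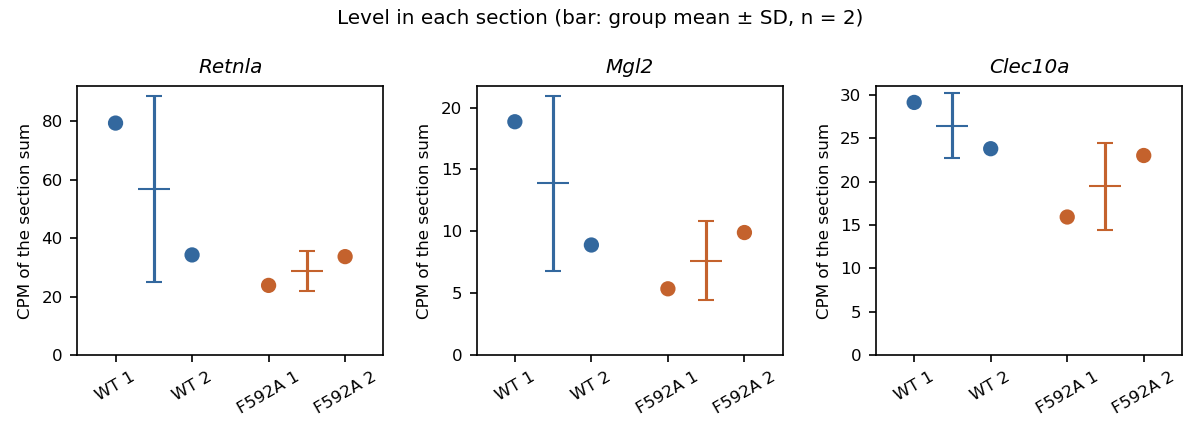
Level of each gene (CPM, vertical axis) in the 4 sections, with points for sections and a bar for the group mean ± SD (n = 2). WT 1 is highest in all 3 panels, and for Retnla and Mgl2 the other WT section lies near F592A 2.

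The highest section exceeded the lowest 3.33-fold for Retnla, 3.53-fold for Mgl2 and 1.83-fold for Clec10a. If each section carried a gene equally its share of the 4 CPM values would be equal, but WT 1 held 46.4% of the summed Retnla level, 43.9% of Mgl2 and 31.7% of Clec10a. Means were 56.8 ± 31.9 (SD, n = 2) in WT and 28.7 ± 6.97 in F592A for Retnla, 13.9 ± 7.05 and 7.62 ± 3.22 for Mgl2, and 26.5 ± 3.78 and 19.5 ± 5.02 for Clec10a. The WT spread of Retnla exceeded the difference between its group means. Both F592A sections were below both WT sections for Retnla and Clec10a but not for Mgl2, and the margins for the first 2 were under 1 CPM. Over all 16347 genes tested, 20.3% showed that order.

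In a fit of all genes with edgeR the log2 fold change of F592A over WT was -1.004 ± 0.37 (SE) for Retnla, -0.89 ± 0.41 for Mgl2 and -0.47 ± 0.18 for Clec10a. Without WT 1 these became -0.32, -0.29 and -0.36, and without WT 2 they were -1.46, -1.31 and -0.57. Leaving out F592A 1 gave -0.80, -0.53 and -0.25, and leaving out F592A 2 gave -1.24, -1.36 and -0.72. The size for Retnla and Mgl2 therefore moved by over 1.5 times without WT 1, and that for Mgl2 and Clec10a without either F592A section, while no sign changed. The adjusted p-value called 0.0795% of all tested genes in either direction, and the chosen genes were not tested.

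The summed level of general macrophage genes was more even than Retnla. That level, over 10 genes that include Adgre1, Csf1r and the complement genes C1qa to C1qc, was 2849, 3111, 3192 and 2920 CPM in WT 1, WT 2, F592A 1 and F592A 2. The highest section was 1.12 times the lowest, and Lyz2 gave 1524 of the 2849 CPM in WT 1. A list of 8 genes of perivascular, tissue-resident macrophages (Lyve1, Folr2, Cd163, Mrc1 and others) gave 706, 754, 703 and 829 CPM. Gas6 supplied about as much as the rest of that sum together (362 of 706 CPM in WT 1), and smaller members were less even, with Cbr2 at 35.9, 42.3, 61.1 and 86.8 CPM and Folr2 at 16.8, 23.9, 27.5 and 37.7 CPM. The list's median log2 fold change was 0.36, with 0 of 8 genes passing by edgeR, against 0.0795% of all genes. An unadjusted p under 0.05 (edgeR) was found for 2 of the 8, against 11.8% of all genes. DESeq2 called 1, against 2.54% of all genes. Per 1000 macrophage-list UMIs, Retnla had 27.9, 11.0, 7.46 and 11.5 UMIs. Mgl2 had 6.62, 2.86, 1.67 and 3.39 on the same scale, and Clec10a 10.2, 7.65, 4.99 and 7.88. WT 1 was again highest and F592A 1 lowest for each. Markers of eosinophils, a known source of interleukin-4 in tissue, were nearly absent, with Epx at 0 in every section and the list of 5 genes at 0.569 to 0.816 CPM.

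The transcripts sat in few spots. At least 1 Retnla UMI was found in 28.0% of WT 1 spots (95% Wilson interval 26.5 to 29.7), 19.9% of WT 2 (18.2 to 21.7), 14.9% of F592A 1 (13.7 to 16.3) and 21.3% of F592A 2 (19.8 to 22.8). In the spots richest in epidermis genes, where macrophages should be few, the shares were 12.2, 4.95, 4.59 and 13.5%, at median depths of 3633.5, 2226, 3206 and 4390.5 UMIs against 5974, 7932, 5467.5 and 6540 over all spots. Mgl2 was found in 13.01% (11.9 to 14.3), 8.89% (7.73 to 10.2), 5.33% (4.56 to 6.22) and 8.81% (7.80 to 9.92) of spots, and in 1.98 to 4.93% of the epidermis-rich ones. Clec10a was found in 20.4% (19.0 to 21.8), 19.0% (17.4 to 20.8), 13.1% (11.9 to 14.3) and 17.0% (15.6 to 18.4), and in 7.57 to 9.41% of the epidermis-rich ones. After every spot was thinned to 2000 UMIs, leaving out 457, 287, 337 and 58 shallower spots, the Retnla shares were 11.6, 6.85, 5.73 and 10.4%. F592A 2 then lay close to WT 1 in the spread of Retnla over spots, although its level was well below that of WT 1. The thinned shares were 3.09, 2.19, 1.20 and 2.16% for Mgl2 and 4.83, 5.81, 3.84 and 4.91% for Clec10a, for which WT 2 was highest. Intervals here cover counting error only.

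A minority of spots held much of each gene. Half-way points in the ranked UMIs (50%) were reached with 54, 36, 40 and 92 spots for Retnla, 66, 49, 37 and 59 for Mgl2, and 123, 87, 69 and 101 for Clec10a. Retnla was thus more spread in F592A 2 than elsewhere. The richest single spots held 284, 119, 135 and 42 Retnla UMIs in the order WT 1, WT 2, F592A 1 and F592A 2. These are raw counts from spots of unlike depth, with 74898, 61994, 14555 and 157441 UMIs in all. The section medians were 5974, 7932, 5467.5 and 6540. In WT 1 the same spot was also the richest for Mgl2 (45 UMIs) and for Clec10a (23 UMIs), and its 6 neighbours held 39.8 Retnla UMIs on average. The richest spots of WT 2 and F592A 1 were isolated, with a mean of 1.00 and 2.17 Retnla UMIs in their 6 neighbours. In F592A 1 that single spot carried 135 of the section's 1047 Retnla UMIs, 2 Mgl2 UMIs and 2 Clec10a UMIs. In F592A 2, as in WT 1, a single spot was the richest for all 3 genes, with 42, 18 and 33 UMIs. Both spots were far deeper than the median of their section, and the part of depth in this sharing was not tested.

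WT 1 owed its high Retnla level partly to a band of adjacent spots. Spots with at least 10 Retnla UMIs numbered 61, 20, 15 and 13. The largest group of adjacent spots of this kind had 31 spots and 1229 of the 3408 Retnla UMIs in WT 1, against 5, 8 and 3 spots with 108, 138 and 46 UMIs in the other sections. That group held 2.17% of all UMIs of WT 1, and 0 of its spots were muscle-rich. Genes of the perivascular macrophage list summed to 2518 CPM there, against 706 CPM over the section. Without the group, WT 1 stood at 51.9 CPM of Retnla, which was still the highest of the sections. The same minimum gave 10, 0, 0 and 2 spots for Mgl2 and 13, 5, 8 and 4 for Clec10a. The maps show the WT 1 band along one edge of the lower piece of tissue, with Mgl2 and Clec10a beside it.

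**Figure D2:**
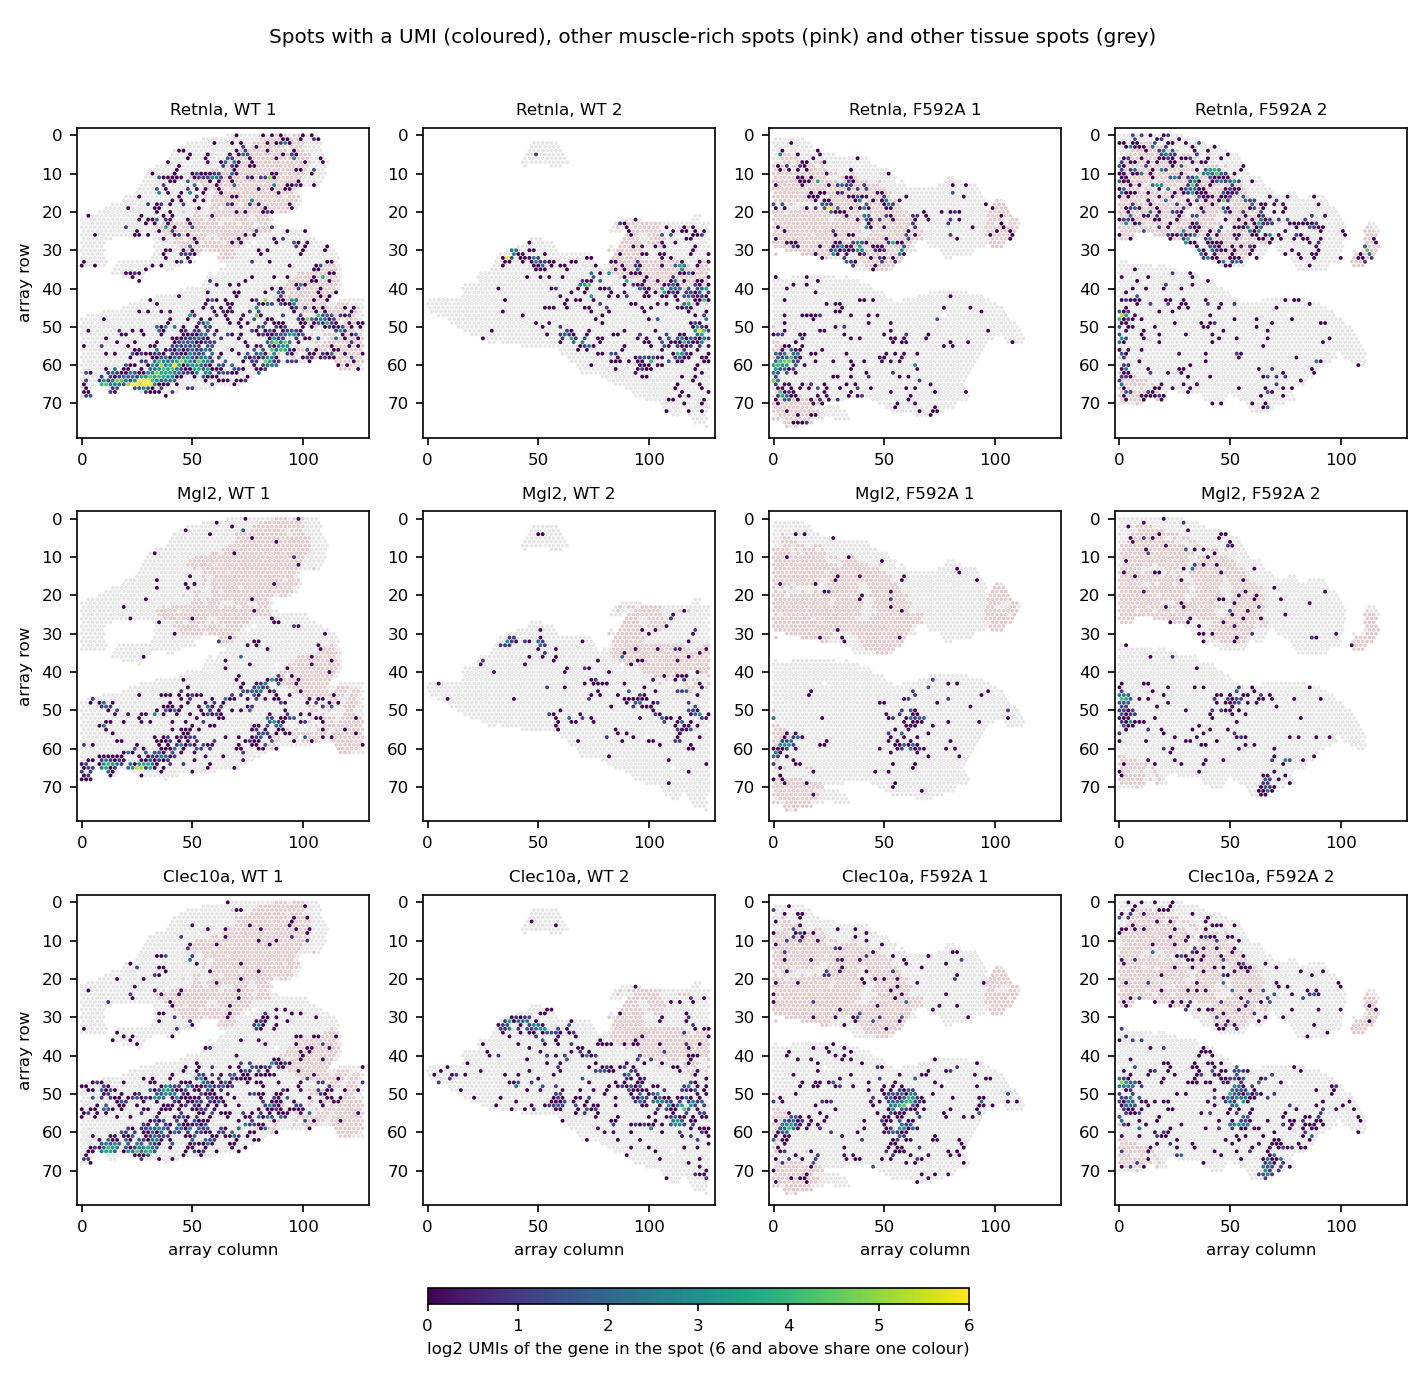
Array position of the spots with at least 1 UMI of Retnla, Mgl2 or Clec10a (rows) in each section (columns), coloured by log2 UMIs, over muscle-rich spots in pink and other tissue spots in grey. Retnla forms a dense band in WT 1 and lies over and around the pink areas of both F592A sections. All 3 genes have most of their UMIs outside muscle-rich spots, which hold 8.60 to 13.1% of all UMIs of a section. Levels inside and outside these spots follow below.

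Retnla was unequal between sections outside muscle and closer to equal inside it. In muscle-rich spots (826, 249, 780 and 686 of them) it was at 78.1, 72.5, 83.1 and 120 CPM. In all other spots it was at 79.6, 30.7, 15.5 and 21.3 CPM. The highest section exceeded the lowest 1.66-fold in muscle-rich spots and 5.14-fold in the others. The order of the groups also differed, with both F592A sections above both WT sections in muscle-rich spots (102 ± 26.1 against 75.3 ± 4.01, SD, n = 2) and below them elsewhere (18.4 ± 4.13 against 55.1 ± 34.6). How many of all genes take either order in these spots was not computed, so the order is not shown to be particular to Retnla. Muscle-rich spots carried 440 of 3408 Retnla UMIs in WT 1 and 188 of 1033 in WT 2, against 450 of 1047 and 557 of 1249 in the F592A sections. Their ratio to the other spots was 0.981, 2.36, 5.36 and 5.63.

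The limit that defined muscle-rich spots changed part of this. With the limit at 2% of UMIs Retnla was at 84.2, 67.8, 99.4 and 131 CPM in muscle-rich spots and 78.0, 27.9, 7.95 and 11.5 in the rest. With the limit at 10%, which left 135, 20, 188 and 144 spots, muscle-rich levels were 80.5, 107, 91.2 and 93.7 CPM, and the groups overlapped. The levels outside, 79.4, 33.7, 22.0 and 31.8 CPM, kept WT 1 highest at every limit. When muscle-rich spots were left out of the section sums, the fitted log2 fold change of Retnla was -1.60.

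Clec10a had the same order of groups as Retnla inside and outside muscle-rich spots, and Mgl2 had groups that overlapped in both. Here too the share of all genes with such an order was not computed. Mgl2 was at 7.81, 9.25, 8.49 and 11.8 CPM in muscle-rich spots and at 20.5, 8.85, 4.90 and 9.62 CPM in the others, so that outside muscle only WT 1 stood well above the rest. Clec10a was at 11.7, 7.32, 19.2 and 21.3 CPM in muscle-rich spots, higher in both F592A sections than in both WT sections. Outside them it was at 31.8, 25.4, 15.5 and 23.3 CPM, lower in both F592A sections. Clec10a was also lower in muscle-rich than in other spots in both WT sections.

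**Figure D3:**
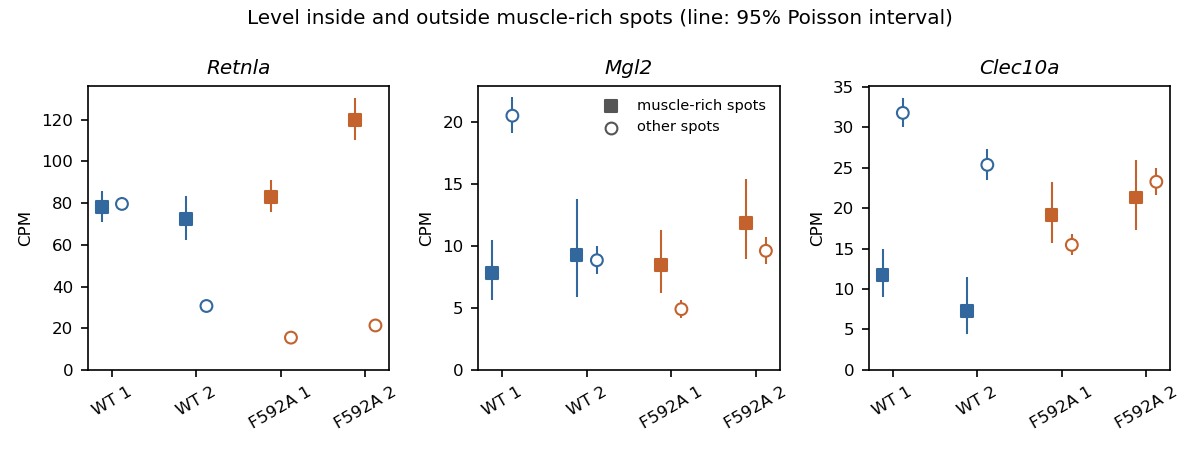
Level (CPM) of each gene in muscle-rich spots (squares) and other spots (circles) of each section, with 95% Poisson intervals for counting error. For Retnla the squares lie between 72.5 and 120, while the circles lie at 79.6 in WT 1 and between 15.5 and 30.7 in the other sections.

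The genes were then followed in the 10% of spots of each section that were richest in the genes of a cell type list. In spots richest in the perivascular macrophage list Retnla was at 323, 130, 30.4 and 51.3 CPM. Mgl2 was at 69.0, 26.9, 10.5 and 20.8 CPM there, and Clec10a at 92.7, 90.3, 46.4 and 54.9 CPM. All 3 genes were above the remaining spots in every section, Clec10a by 3.25- to 5.53-fold, Mgl2 by 2.37- to 6.30-fold and Retnla by 7.87- and 5.54-fold in WT but only 1.34- and 1.69-fold in F592A. The summed level of the list itself differed by 1.18-fold between sections.

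Spots richest in macrophage or in adventitial fibroblast genes were above the remaining spots in Retnla in WT and below them in F592A. In the spots richest in macrophage genes it was at 202, 59.8, 20.1 and 18.2 CPM, above the remaining spots in both WT sections and below them in both F592A sections. Spots richest in adventitial fibroblast genes gave 227, 74.7, 20.4 and 17.4 CPM, which was 4.85, 2.94, 0.795 and 0.414 times the remaining spots. The sets were unlike between groups in their share of all UMIs. It was 23.1, 21.4, 34.6 and 32.9% for macrophage-rich spots and 18.1, 17.9, 35.1 and 33.9% for adventitial fibroblast-rich spots. The part of that share in the contrast was not tested. Read from the other side, the spots that held 50% of the Retnla UMIs were above their section in these lists in every section. They had 2.06, 1.87, 1.12 and 1.88 times the section's macrophage-list level, 2.59, 1.99, 1.20 and 2.07 times its perivascular macrophage-list level and 1.80, 1.66, 1.12 and 1.32 times its adventitial fibroblast-list level. Their adipocyte-list level was 2.08, 1.75, 2.57 and 2.68 times that of the section, and their muscle-list level 0.554, 0.940, 2.17 and 1.95 times. Clec10a stayed above the remaining spots in macrophage-rich spots of all 4 sections, at 62.3, 46.9, 22.9 and 30.9 CPM. In spots richest in dendritic cell genes Retnla was at 266, 94.8, 37.8 and 55.4 CPM and Mgl2 at 60.8, 21.5, 10.6 and 20.5 CPM. When the richest 20% were taken, Retnla in dendritic-rich spots was below the remaining spots in both F592A sections, at 18.4 and 18.1 CPM.

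In spots richest in the adipocyte list, called adipocyte-rich below, Retnla was high in every section. Its level there was 218, 98.8, 96.0 and 122 CPM, which was 3.02, 3.23, 4.84 and 4.59 times the remaining spots. Without muscle-rich spots the adipocyte-rich levels were 221, 98.5, 89.0 and 105 CPM. In the section sums, the adipocyte list itself (Adipoq, Plin1, Cfd, Fabp4 and others) was at 541, 448, 521 and 830 CPM, highest in F592A 2. Its part in the Retnla levels was not tested. Fabp4 gave 436, 283, 286 and 423 CPM of these sums and Cfd 61.0, 112, 167 and 286, against 11.8 to 40.4 for Adipoq. Adipocyte-rich spots are therefore rich in Fabp4 and Cfd, and whether they hold fat was not tested. Mgl2 in these spots was at 43.2, 22.2, 13.5 and 18.5 CPM and Clec10a at 82.2, 84.0, 33.2 and 41.4 CPM. Spots richest in Schwann cell genes, the glia of peripheral nerve, held 111, 95.4, 88.2 and 97.6 CPM of Retnla. This evenness held only at that limit and with muscle-rich spots kept, since the richest 20% gave 119, 66.0, 55.2 and 41.5 CPM and the richest 10% without muscle-rich spots gave 112, 59.6, 77.3 and 82.5 CPM. Lower levels were found in spots richest in tenocyte genes (24.6, 31.4, 15.7 and 7.12 CPM). The list drawn up for monocytes was mostly the matrix gene Fn1 (6607 of 6896 CPM in WT 1, with Ly6c2 at 2.89), so its richest spots are Fn1-rich and cannot be called monocyte-rich. Retnla was at 21.6, 20.7, 2.69 and 6.16 CPM there. The list drawn up for scar macrophages was likewise mostly Cd9, Fabp5 and Spp1, with Trem2 at 54.7 of 1509 CPM in WT 1, and its richest spots held 17.9, 18.3, 4.52 and 13.7 CPM of Retnla.

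**Figure D4:**
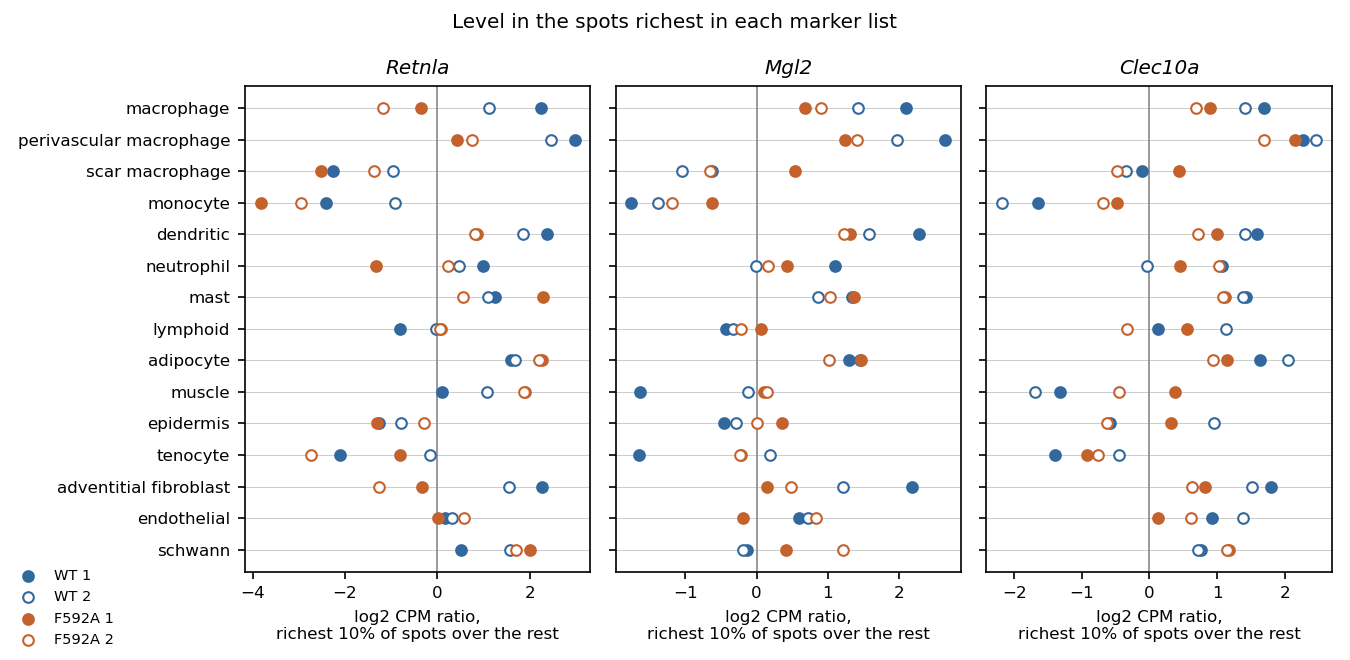
Log2 ratio of the level of each gene in the 10% of spots richest in a marker list to its level in the remaining spots (horizontal axis), for 15 lists and 4 sections. Retnla lies right of 0 for the adipocyte list in every section. It lies on opposite sides in WT and F592A for the macrophage and adventitial fibroblast lists, while Clec10a lies right of 0 for the perivascular macrophage list throughout.

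The 3 genes overlapped only in part. Over 63 to 90 blocks of neighbouring spots per section, the correlation of Retnla with Mgl2 was 0.38 and 0.30 in the WT sections and 0.19 and 0.31 in the F592A sections. Retnla with Clec10a gave 0.40, 0.22, 0.35 and 0.32, and Mgl2 with Clec10a 0.43, 0.31, 0.24 and 0.27. Blocks share the library and differ in depth, and the counts are sparse, so these are descriptions. The spots that held 50% of the Retnla UMIs, with 3.44 to 4.74% of all UMIs, held 14.9 to 28.6% of the Mgl2 UMIs and 10.6 to 16.6% of the Clec10a UMIs.

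Among 9533 genes of at least 10 CPM, those most like Retnla in location were Gsn, Car3, Fabp4, Selenow and Eepd1, with mean correlations of 0.65, 0.60, 0.60, 0.58 and 0.57 over the 4 sections. Gsn encodes the actin-severing protein gelsolin, Car3 a carbonic anhydrase abundant in fat and slow muscle, and Fabp4 a fatty acid carrier of adipocytes and endothelium. The likeness to Gsn was 0.44 and 0.57 in WT and 0.78 and 0.79 in F592A. Mgl2 ranked 711 and Clec10a 633 in likeness to Retnla. In the other direction Retnla ranked 22 and Clec10a 15 in likeness to Mgl2, and Retnla ranked 58 and Mgl2 65 in likeness to Clec10a. Mgl2 was most like Cd74, H2-Aa, H2-Eb1, Bmper and H2-Ab1 (0.43, 0.42, 0.39, 0.38 and 0.36), of which 4 serve antigen presentation on MHC class II. Its likeness to Cd74 was 0.65 and 0.44 in the WT sections and 0.35 and 0.28 in the F592A sections. Clec10a was most like F13a1, Zeb2, Fgl2, Cfd and Trf (0.49, 0.46, 0.44, 0.43 and 0.43). F13a1 encodes a coagulation factor subunit of resident macrophages, and Cfd the adipocyte protein adipsin. With smaller blocks 4, 4 and 1 of the 5 genes were the same for Retnla, Mgl2 and Clec10a, so the list for Clec10a is the least settled.

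The other genes of the interleukin-4 pathway were taken from lists and tested by edgeR (quasi-likelihood, Benjamini-Hochberg over all 16347 genes), of which 13 passed. The median log2 fold change over all tested genes was 0.00, and 50.05% were negative. An unadjusted p under 0.05 was found for 11.8% of them, and DESeq2 called 2.54% of the genes it tested. Of 9 ligands that drive or modulate the state, 4 had enough UMIs to test and 0 passed by edgeR or by DESeq2, with 2 at an unadjusted p under 0.05 (edgeR) and a median of -0.12. Il4 had 4, 0, 2 and 0 UMIs in the 4 sections and Il13 had 0 in each, which allows up to 3 UMIs per section, so neither cytokine could be compared at this depth. Il10, an anti-inflammatory cytokine, was at 1.10, 1.36, 0.478 and 0.404 CPM (log2 fold change -1.48 ± 0.35, adjusted p = 0.238). Csf1, the macrophage growth factor, was at 34.9, 35.2, 41.0 and 49.2 CPM (0.34 ± 0.11, adjusted p = 0.344).

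Stat6 and Il4ra were among the more even genes between sections, and Irf4 was lowest in F592A 1. Of 13 listed, 12 were tested, 0 passed by edgeR or DESeq2 and 0 had an unadjusted p under 0.05 (edgeR), with a median log2 fold change of 0.12. Stat6 was at 37.1, 38.6, 44.3 and 43.2 CPM (0.18 ± 0.10, adjusted p = 0.538). Il4ra, the shared receptor chain, was at 57.3, 50.2, 62.2 and 56.5 CPM. Klf4, a transcription factor that acts with STAT6, was at 117, 136, 148 and 178 CPM (0.33 ± 0.14, adjusted p = 0.448). Irf4 was at 4.85, 4.51, 2.39 and 3.99 CPM (-0.59 ± 0.27, adjusted p = 0.481).

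Other alternative activation genes had values of either sign. Of 19 listed, 16 were tested, 0 passed by edgeR, 8 were negative and 8 positive, and the median was -0.01. An unadjusted p under 0.05 (edgeR) was found for 4 of the 16, against 11.8% of all genes, and DESeq2 called 2, Msr1 and Ear2, against 2.54% of all genes. Arg1, the arginase that marks the state in mouse, was at 1.24, 0.895, 1.16 and 2.94 CPM, and Chil3 at 0.816, 1.03, 0.819 and 0.809 CPM. The mannose receptor gene Mrc1 was even, at 155, 138, 143 and 165 CPM. Msr1, a scavenger receptor, was at 14.3, 14.5, 22.3 and 24.2 CPM (0.67 ± 0.10, adjusted p = 0.161). Ear2, a ribonuclease of eosinophils and macrophages, was at 6.29, 1.86, 0.796 and 0.971 CPM (-2.23 ± 0.58, adjusted p = 0.270) and so had WT 1 highest, as Retnla did. Socs1, a STAT feedback inhibitor, was at 23.4, 28.0, 19.0 and 16.7 CPM (-0.55 ± 0.15, adjusted p = 0.285).

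Of 9 classical activation genes, 8 were tested and 1 passed by edgeR, against 0.0795% of all genes. An unadjusted p under 0.05 (edgeR) was found for 4 of the 8, against 11.8% of all genes. DESeq2 called 3, against 2.54% of all genes. Ptgs2, the inducible cyclooxygenase, rose from 5.22 and 5.77 CPM in WT to 29.0 and 28.3 CPM in F592A (2.36 ± 0.13, adjusted p = 0.0133). It lost the call without F592A 1 (adjusted p = 0.273), without F592A 2 (0.299) and with replicate number as a block (0.0583), at log2 fold changes of 2.31, 2.41 and 2.36. Il1b was at 3.94, 1.76, 6.98 and 7.74 CPM (1.34 ± 0.35, adjusted p = 0.278) and the interferon-induced chemokine Cxcl9 at 4.78, 7.56, 1.75 and 2.72 CPM (-1.50 ± 0.34, adjusted p = 0.231).

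Among gene relatives, none of those tested passed by edgeR, against 0.0795% of all genes. DESeq2 called 1 of them, Retn, against 2.54% of all genes. Retn, which encodes the fat hormone resistin, was at 4.59, 4.18, 8.19 and 18.6 CPM (1.57 ± 0.37, edgeR adjusted p = 0.242). Both F592A sections were above both WT sections, and the sign was opposite to that of Retnla. The share of all genes in that order is not given here. Retnlb was at 0 UMIs in every section, and Retnlg was too low to test. Of 13 lectin relatives 0 passed by edgeR or DESeq2 and 10 were negative, with a median of -0.36 and 4 at an unadjusted p under 0.05 (edgeR), where 50.05% and 11.8% of all genes were negative and under that p. Clec4a3 was at 20.8, 21.6, 16.0 and 16.0 CPM (-0.43 ± 0.10, adjusted p = 0.249), and Cd209a, a lectin of dendritic cells, at 9.37, 9.32, 4.94 and 7.74 CPM (-0.59 ± 0.22, adjusted p = 0.400). Of the 7 MHC class II genes all were tested, 0 passed by edgeR and 7 were negative, with a median of -0.84. An unadjusted p under 0.05 was found for 6 (11.8% of all genes) and DESeq2 called 6 (2.54% of all genes). By edgeR 2 were called without WT 1 and 5 without WT 2, where 2.1% and 2.31% of all genes were, and 0 without either F592A section, where 0% of all genes were. Cd74 was at 870, 717, 382 and 472 CPM (-0.92 ± 0.16, adjusted p = 0.196), so both F592A sections were below both WT sections for the gene most like Mgl2 in location.

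**Figure D5:**
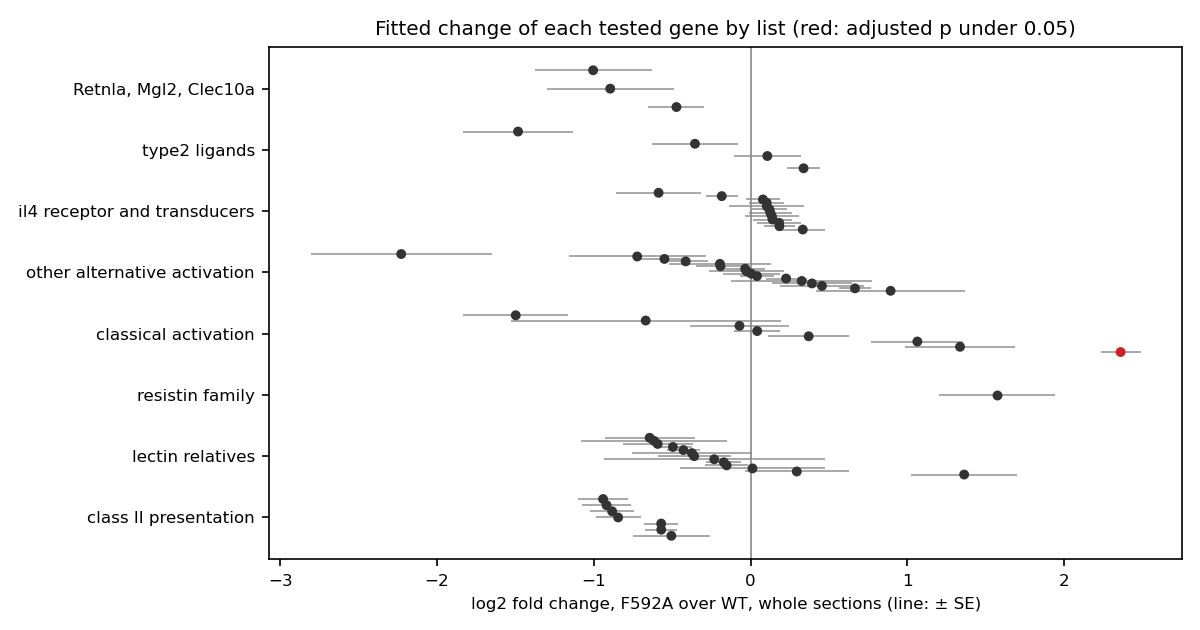
Fitted log2 fold change of F592A over WT with its SE for each gene of the 7 lists, and for Retnla, Mgl2 and Clec10a in the top row, which are shown as a description. The class II genes lie left of 0, the other alternative activation genes spread to both sides, and Ptgs2, in red, is the single gene past the threshold.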

How the data were processed

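UMI counts per gene and spot were deposited as raw matrices with no normalization, written by Space Ranger 1.3.0 per the file headers. The build mm10 and Seurat 3 come from the submitters' processing notes, and the gene annotation and read assignment are not given in the sources used here. Of the tissue spots, 4, 3, 3 and 3 with under 500 UMIs were left out. Spots are not replicates, so counts were summed per section. The sums were fitted with edgeR 4.0.16 (R 4.3.3; TMM, filterByExpr, quasi-likelihood test, Benjamini-Hochberg over 16347 genes, threshold 0.05), after a test on simulated data. SEs were derived from the F statistics and fold changes.

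Muscle-rich spots had over 5% of UMIs from the muscle list. Location likeness was the mean over sections of Pearson correlations of log2(CPM + 10) over blocks of 6 array rows by 12 columns with at least 12 spots. Promoters came from RefSeq windows of GRCm38.p6, of which 2 of the 3 genes matched.

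The members and the 23 gene lists (16 of cell types and 7 of pathways) were chosen with earlier results of these data known. The members were named always, then up to 4 genes per pathway list by smallest p plus any past the threshold, and the 5 genes most like each member. Values of Il4, Il13, Arg1, Chil3, Mrc1, Il4ra, Retnlb and of marker genes given outside that rule were chosen after they were seen. Clec7a was not analysed here. The fit was repeated with RLE scaling, DESeq2 1.42.0, no filter, all spots, no muscle-rich spots, each section left out and the replicate number as a block. Locations were recomputed with other spot limits, block sizes or depths. Python 3.11.15, numpy 2.4.6, pandas 2.3.3, scipy 1.17.1 and matplotlib 3.10.9 were used.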

Additional observations from a re-analysis of the deposited data

Results flagged for a closer look

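For 6 of 48 pairs of a gene and a marker list or split, every WT section and every F592A section lay on opposite sides of the remaining spots. None of these differences was tested. How many of all genes show this was not computed, so the count of 6 is not a result about these genes. The values are the mean log2 ratio of list-rich to remaining spots in WT minus that in F592A. For Retnla they were 2.454 for the macrophage list, 2.718 for the adventitial fibroblast list and -0.4827 for the lymphoid list. Gata3 gave 55.6, 36.9, 66.1 and 117 of the 83.5, 78.2, 104 and 145 CPM of the lymphoid list, and Cd3e 1.00 to 2.02 CPM. The richest spots of that list therefore cannot be called lymphoid-rich. For Mgl2 they were -1.002 in muscle-rich (the richest 10%), -0.5596 in epidermis-rich and -0.9835 in Schwann-rich spots. These rest on few Mgl2 UMIs, with 12, 17, 11 and 24 in the muscle-rich spots of the 4 sections. The epidermis-rich spots held 19, 4, 9 and 15 and the Schwann-rich spots 40, 9, 9 and 46. The part of counting error in these values was not tested. With the richest 20% of spots, Retnla kept its side in all 4 sections for the macrophage and adventitial fibroblast lists. At least 1 section changed side for each of the other 4 pairs, among them WT 1 for Mgl2 in Schwann-rich spots.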

How the results depend on the processing

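No fitted fold change of Retnla, Mgl2 or Clec10a changed sign under any of the 11 alternatives. That of Retnla ranged from -1.46 to -0.32 when 1 section was left out. The count of 13 called genes (edgeR) was 5 with RLE scaling, 546 with no filter, 420 with DESeq2, and from 0 to 390 when 1 section was left out. The 0 came without either F592A section, with 1441 and 835 genes at an unadjusted p under 0.05, and a lone section is there assumed to vary like the other group. The labels do not say that numbers pair sections. With the replicate block the count was 7, of which 4 were among the 13. The differences between same-group sections correlated at -0.162 over genes, and a block with crossed numbers, added after seeing the data, gave 189. The log2 fold change of Il33, 0.11 with all sections, was -0.18 without WT 1 and 0.47 without WT 2. Among the genes named by smallest p, Msr1, Ear2, Retn, Il1b, Cxcl9 and 4 class II genes also passed the threshold with no filter or with DESeq2. DESeq2 called 6 of all 7 class II genes. The causes were not tested. With the richest 20% of spots (9 of the 15 lists added after seeing the data), 164 of 180 levels kept their side of the remaining spots. The muscle limits of 2% and 10% were also added then, and moved 9 and 13 of 24 levels beyond their counting interval. Thinning lowered all 12 shares of spots. Il4, Il13 and Retnlb were at or near 0 UMIs, where no difference is detectable. Whether depth or absence from the tissue left them there was not tested.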
